A study of Mus musculus with 13 samples.

Results

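The complement system was followed through 9 of its genes across 13 mouse hearts by RNA sequencing, which gave a level for 53278 gene symbols per heart. These are Masp1, C1ra, C1s1, C2, C3, C4b, C7, Cfb and Serping1, taken by symbol, and all 9 were found. They were chosen by hand with expression results of these same hearts, read counts per gene and their changes between groups, in view. Which comparison weighed in that choice is not recorded, so the values below describe these genes and are not independent evidence about them as a list. All hearts were from male wild-type C57Bl6 mice, operated on at 12 weeks of age and harvested at 17 weeks. In the IR edit group (4 hearts) ischaemia-reperfusion surgery, IR, was combined with a functional system for editing CaMKIIδ, a calcium-dependent kinase of heart muscle. The IR virus group (3 hearts) had IR and a control virus, the IR group (3 hearts) had IR without injection, and the Sham group (3 hearts) had sham surgery without injection. The labels give neither the vector, its dose and the cells it reached, nor any batch.

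Complement is a cascade of plasma and tissue proteins in which proteases activate one another on a surface and converge on the cleavage of C3. The classical arm starts when C1q binds its target and switches on the proteases C1r and C1s, and the lectin arm starts with sugar-binding proteins and their proteases, one of them made from Masp1. Both arms cleave C4 and C2, factor B drives the alternative arm, and C7 belongs to the complex that inserts into membranes at the end of the cascade. C1 inhibitor, the product of Serping1, blocks C1r, C1s and the lectin-arm proteases. Much plasma complement is made in the liver, while fibroblasts and macrophages make components locally.

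The genes lie on mouse chromosomes 2, 6, 15, 16 and 17 (build mm10, gene spans of GENCODE M21). Masp1 is at chr16:23449417-23520815 and C3 at chr17:57203970-57228136, both on the minus strand. The protease genes C1ra, at chr6:124512405-124523443 on the plus strand, and C1s1, at chr6:124530345-124542359 on the minus strand, are neighbours 6901 bases apart. C2 (chr17:34862604-34898265), Cfb (chr17:34856374-34862518) and C4b (chr17:34728380-34743882) lie close together, all on the minus strand, with 85 bases between C2 and Cfb. C7 is at chr15:4988762-5063740 and Serping1 at chr2:84765387-84775444, again on the minus strand.

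The 250 bases before a RefSeq transcription start (GRCm38.p6, the same assembly as mm10) are shown for C3 and C1s1, whose levels went up and down together across the hearts, and for C7, which followed C1s1 less closely. Each is written on the strand of its gene, the last base next to the start. The windows are chr17:57228137-57228386 for C3, chr6:124542360-124542609 for C1s1 and chr15:5063774-5064023 for C7, all on the minus strand. Capitals mark matches, on either strand, to TTNNGNAA (the CAAT enhancer element bound by C/EBP factors) or TTCNNNGAA (the STAT element).
C3: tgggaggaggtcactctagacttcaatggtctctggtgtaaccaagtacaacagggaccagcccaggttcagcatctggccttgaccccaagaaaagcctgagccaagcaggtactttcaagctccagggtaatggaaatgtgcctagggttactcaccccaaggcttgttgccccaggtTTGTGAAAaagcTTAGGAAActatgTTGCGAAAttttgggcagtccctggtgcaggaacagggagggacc
C1s1: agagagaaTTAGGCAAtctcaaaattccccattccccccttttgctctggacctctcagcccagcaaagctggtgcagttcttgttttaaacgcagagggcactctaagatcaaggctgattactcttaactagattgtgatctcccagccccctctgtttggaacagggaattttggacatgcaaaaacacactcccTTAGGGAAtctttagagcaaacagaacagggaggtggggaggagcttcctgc
C7: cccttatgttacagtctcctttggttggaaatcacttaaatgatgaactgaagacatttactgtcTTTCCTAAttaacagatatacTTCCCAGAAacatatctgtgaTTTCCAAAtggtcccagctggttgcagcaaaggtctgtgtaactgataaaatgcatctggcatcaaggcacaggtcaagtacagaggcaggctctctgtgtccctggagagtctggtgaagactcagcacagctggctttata
The C3 window holds the CAAT enhancer element at 3 positions, 70 to 63, 58 to 51 and 45 to 38 bases before the start. In C1s1 it stands at 2 positions, 242 to 235 and 52 to 45 bases before the start, and in C7 at 2, 185 to 178 and 143 to 136. RefSeq has a second C1s1 start, whose window (chr6:124542322-124542571, minus strand) holds the element at 1 position, 90 to 83 bases before that start. The window of C1ra, which followed C1s1 more closely than C3 did, is not printed. It holds the element at 2 positions, 72 to 65 and 29 to 22 bases before the start. The C7 window also has a STAT element, 164 to 156 bases before the start. Of 32851 RefSeq promoter windows of this length, 36.8% hold the CAAT enhancer element at least once and 2.61% at 3 or more positions, while 7.02% hold the STAT element. An interferon element, GAAA repeated after 2 bases of any kind (2.98% of windows), and an NF-kB element, GGGNNTTCC (4.98%), were also looked for on both strands, and neither is written in these windows. A match describes the letters and does not show that a factor bound there.

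Levels are given as CPM, counts scaled to a common library size, and per kilobase of exon (CPM per kb) where genes are compared with each other. The libraries held 20634820 to 27265276 counts. Camk2d, which encodes CaMKIIδ, had 210 to 248 CPM in IR edit, 197 to 233 CPM in IR virus, 235 to 245 CPM in IR and 199 to 280 CPM in Sham hearts. These counts do not show whether the gene was edited. Heart muscle markers were abundant in every heart (Myh6, a cardiac myosin, at 11550 CPM or more). Sham replicate 1 stood apart: it had 245 reads of the liver gene Alb, against 0 in both other Sham hearts, and a summed level of hepatocyte markers of 16.8 CPM, against 1.64 and 1.61 CPM. The next highest Alb count of any heart was 22 reads, in IR replicate 3. The part of such liver transcripts in the complement levels of Sham replicate 1 was not tested. For the tested members, and for other complement genes past the threshold against Sham, values against Sham are therefore also given without that heart. RNA of a whole heart cannot separate fewer cells of a type from less RNA per cell.

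Per kilobase, averaged over the 13 hearts, Serping1 had the highest level at 33.4 CPM per kb, followed by C3 at 26.1 CPM per kb. C1s1 and C7 came next at 7.18 and 7.07 CPM per kb, a difference smaller than the spread between hearts. C1ra had 3.12, C4b 2.47 and Masp1 1.78 CPM per kb. C2 and Cfb were near the limit of detection, with 1 to 12 and 0 to 3 reads per heart, and did not pass the filter on low counts, so 7 of the 9 genes were tested. These reads of C2 and Cfb are also uncertain because an annotated read-through gene, Gm20547, shares 42.8% of the exon bases of C2 and 79.5% of those of Cfb and was listed at 0 in all 13 hearts. The close paralogs C4a, C1rb and C1s2 had 0 to 8, 0 to 1 and 0 to 4 reads, beside at least 131 reads of C4b, 160 of C1ra and 398 of C1s1 in any heart.

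**Figure D1:**
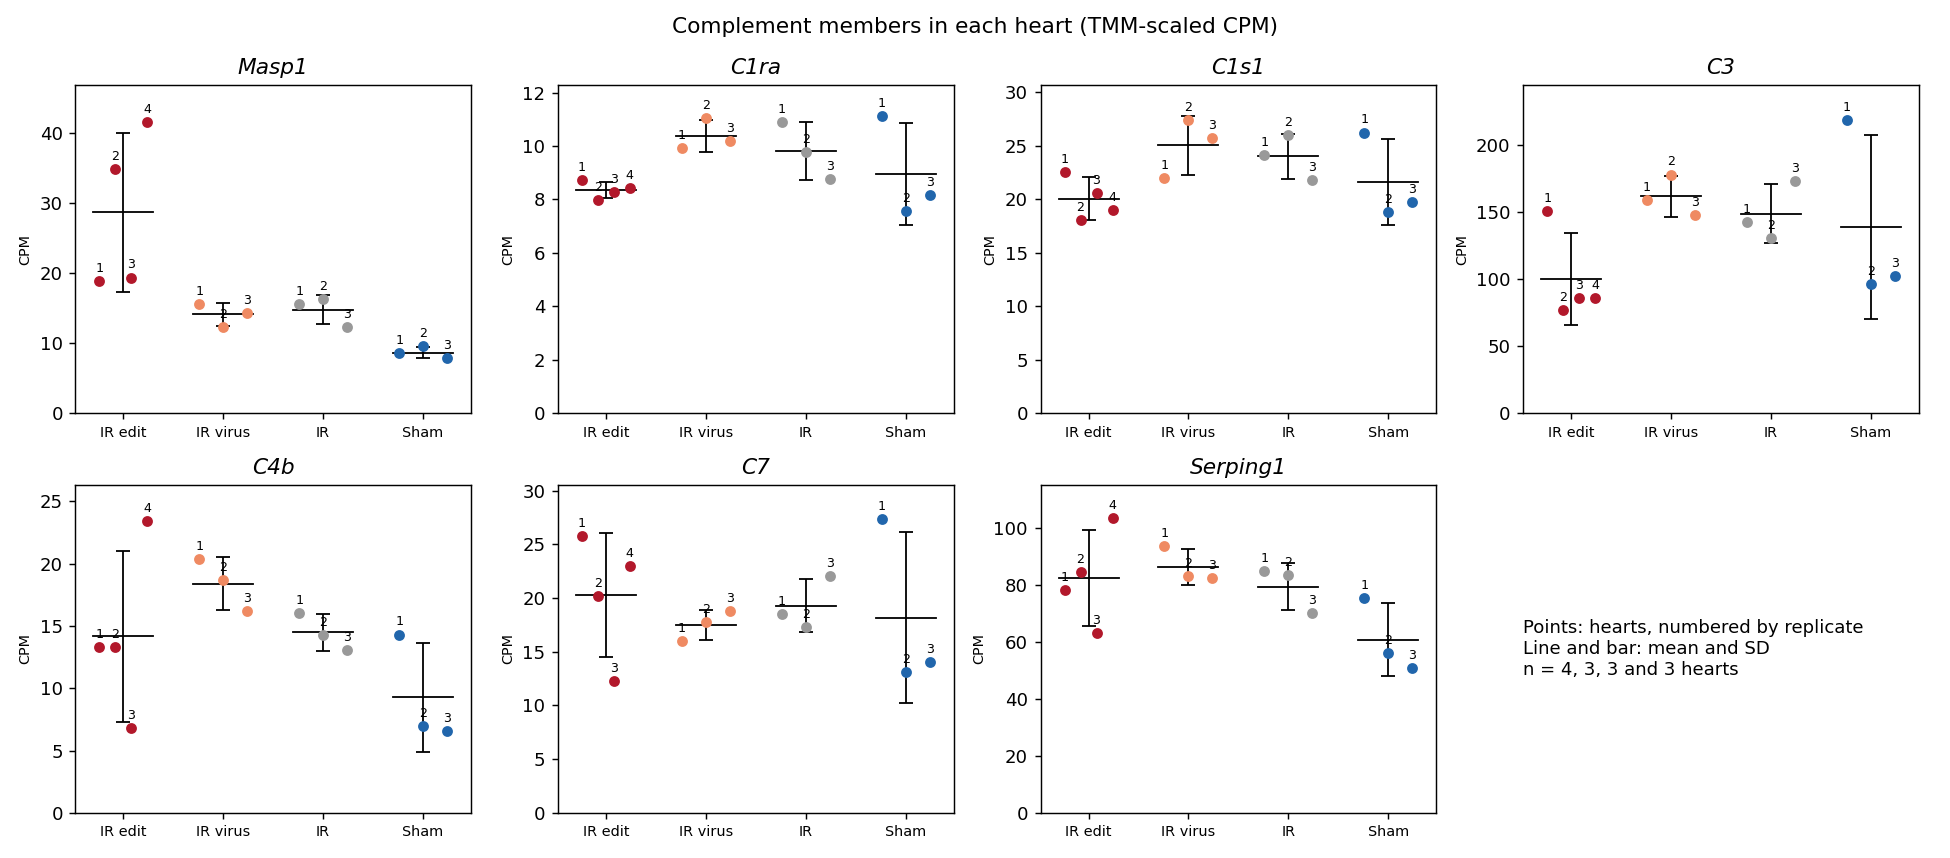
TMM-scaled CPM (y axis) of the 7 tested genes in each heart, with groups along the x axis; points are hearts numbered by replicate, and the line and bar give mean and SD over 4 IR edit, 3 IR virus, 3 IR and 3 Sham hearts. Masp1 is the gene whose IR edit hearts, 18.9 to 41.5 CPM, lie above all other hearts, and Sham replicate 1 is the highest heart for C3 at 218 CPM.

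Masp1, which encodes a protease of the lectin arm among several splice products, was the member that set the edited hearts apart. Its levels in the IR edit hearts were 18.9, 34.8, 19.4 and 41.5 CPM. In IR virus hearts they were 15.6, 12.3 and 14.3 CPM, in IR hearts 15.6, 16.2 and 12.4 CPM, and in Sham hearts 8.57, 9.52 and 7.85 CPM. Every IR edit heart lay above every other heart, every injured heart lay above every Sham heart, and IR edit replicates 2 and 4 were the highest. The group means were 28.6 ± 11.3 CPM in IR edit (SD, n = 4), 14.1 ± 1.62 CPM in IR virus, 14.7 ± 2.09 CPM in IR and 8.65 ± 0.83 CPM in Sham hearts (SD, n = 3 each). The log2 fold change of IR edit against Sham was 1.73 (SE 0.24, adjusted p = 0.00121, edgeR's quasi-likelihood test with Benjamini-Hochberg adjustment). The one against IR virus was 1.03 (SE 0.23, adjusted p = 0.0322), and for IR edit against IR it was 0.96 (SE 0.23), where an adjusted p of 0.0536 missed the threshold of 0.05. IR against Sham gave a log2 fold change of 0.77 (SE 0.26, adjusted p = 0.435) and IR virus against Sham one of 0.70 (SE 0.26, adjusted p = 0.238), so neither passed although the groups did not overlap. Without Sham replicate 1 the values against Sham were 1.72 in IR edit (adjusted p = 0.00701), 0.69 in IR virus (adjusted p = 0.283) and 0.75 in IR hearts (adjusted p = 0.644, edgeR).

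The size of the Masp1 difference rested on IR edit replicates 2 and 4. Without these hearts, a setting chosen after seeing the data, the log2 fold change was 1.14 in IR edit against Sham (adjusted p = 0.000521), 0.44 against IR virus (adjusted p = 0.214) and 0.38 against IR (adjusted p = 0.349, all by edgeR). The call against IR virus was also lost when any single IR virus heart or IR edit replicate 2 or 4 was left out, with log2 fold changes of 0.80 to 1.10 and adjusted p of 0.0658 to 0.144. Robust dispersion estimates (adjusted p = 0.0791) and a fit restricted to IR edit and IR virus hearts (adjusted p = 0.0989, edgeR) also lost it. The call against Sham was kept without IR edit replicate 2 and without IR edit replicate 4. Summed fibroblast markers were 1946, 2078, 1629 and 2330 CPM in the IR edit hearts, 1931 to 2293 CPM in IR virus, 1712 to 2163 CPM in IR and 1439 to 1548 CPM in Sham hearts. Replicates 2 and 4 were thus also the highest IR edit hearts for fibroblast markers. Of these markers 5 of 10 (Pdgfra, Col1a1, Col1a2, Gsn and Mfap5) rose in IR edit against Sham, where 8.01% of all genes passed in either direction. In IR edit against IR virus 0 of 10 passed, where 2.02% of all genes did. The part of this in the Masp1 result was not tested.

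Masp1 shares its span, but 0 exon bases, with Rtp4 and the unnamed transcript Gm45338. Gm45338 had 18 to 88 reads per heart and a log2 fold change of 1.17 in IR edit against Sham (SE 0.32, adjusted p = 0.0368, edgeR), the same direction as Masp1. Rtp4, an interferon-inducible gene, had one of 0.13 (adjusted p = 0.689). The sources used here do not give the strand setting of the counting, and the several splice products of Masp1 are not separated in counts per gene.

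Across these comparisons Masp1 was the only member past the threshold. C2 and Cfb were not tested and could not pass, so each count of the 9 rests on 7 tested genes. It was 1 of 9 in IR edit against Sham, where 8.01% of all 15690 genes tested passed. It was again 1 of 9 for IR edit against IR virus, where 2.02% passed. Between IR edit and IR hearts 0 of 9 passed (1.42% of all genes), although 2 of the 7 had an unadjusted p under 0.05, as did 2272 of all 15690 genes, and DESeq2's Wald test called 1, Masp1. In IR against Sham and in IR virus against Sham 0 of 9 passed, with 0.0127% of all genes called in each. There 2 of the 7 in IR against Sham and 3 of the 7 in IR virus against Sham had an unadjusted p under 0.05, as did 1307 and 2411 of all genes, and DESeq2 called 0 in both. In IR virus against IR 0 of 9 passed and 0% of all genes did, with 0 of the 7 and 603 of all genes under an unadjusted p of 0.05 and 0 called by DESeq2. The 3 comparisons with Sham share the same Sham hearts, and the comparisons of IR edit share the IR edit hearts.

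**Figure D2:**
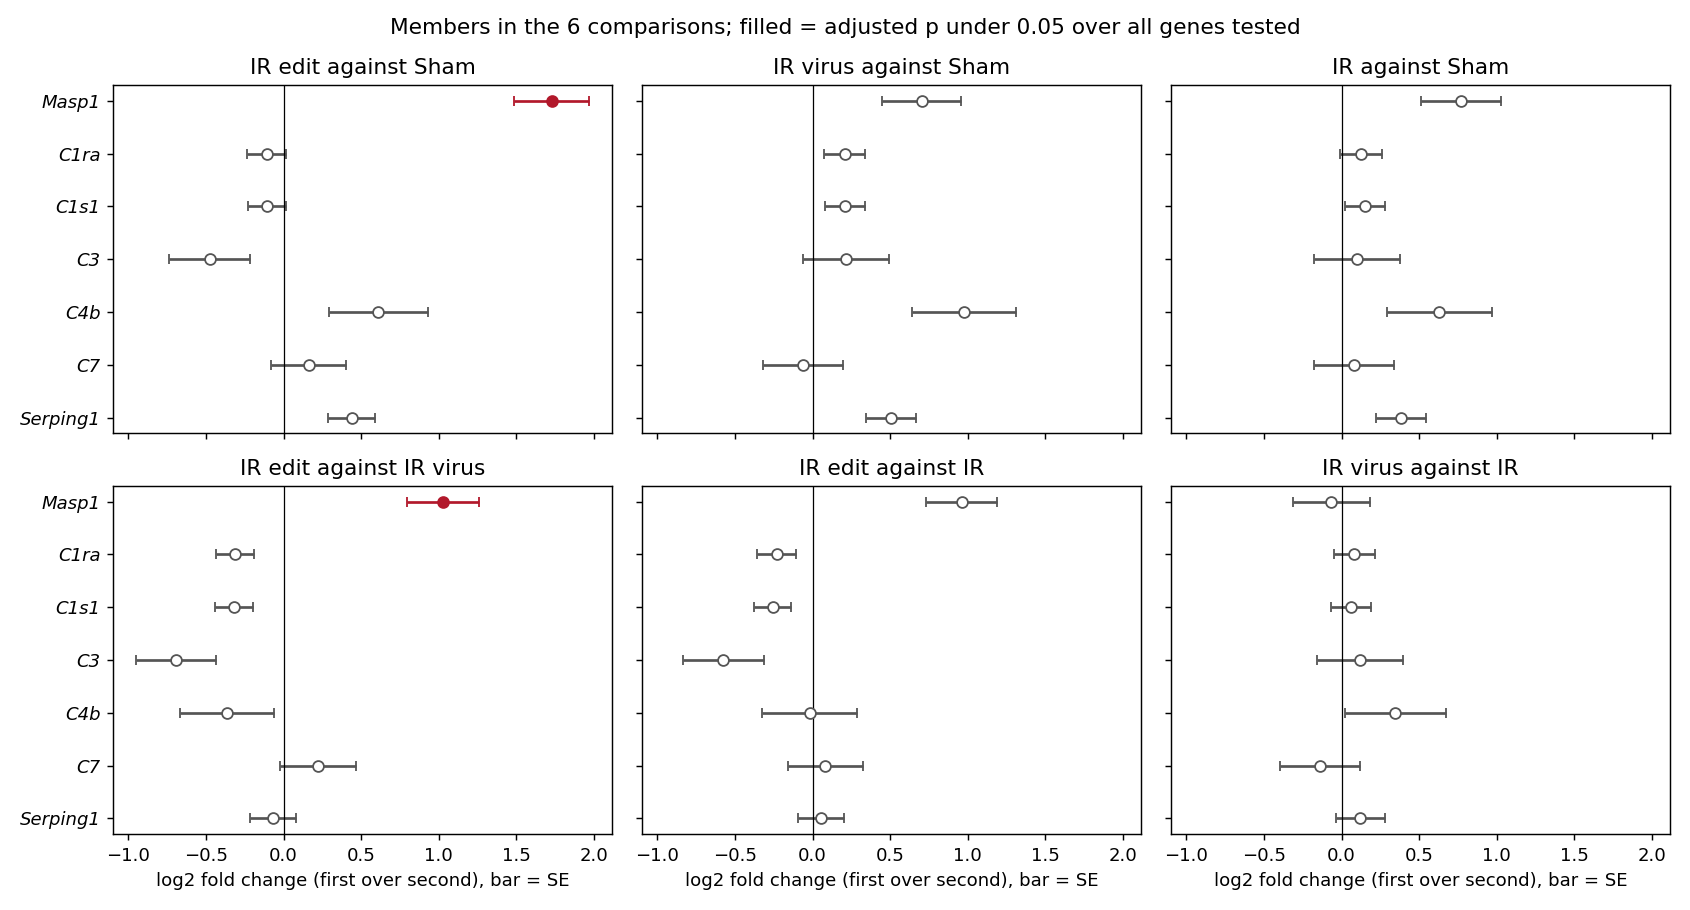
Log2 fold changes (x axis, group named first over group named second) of the 7 tested genes (y axis) in the 6 comparisons; bars are SE, and filled points have an adjusted p under 0.05 over all genes tested. Only Masp1 has filled points, at 1.73 in IR edit against Sham and 1.03 for IR edit against IR virus.

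C1ra and C1s1, the proteases of the C1 complex, stayed within a narrow range. C1ra had 8.72, 7.98, 8.28 and 8.41 CPM in IR edit hearts, 9.91, 11.0 and 10.2 CPM in IR virus, 10.9, 9.76 and 8.75 CPM in IR and 11.1, 7.58 and 8.18 CPM in Sham hearts. Its IR edit hearts lay below every IR virus heart and every IR heart, although the highest IR edit heart, 8.72 CPM, was close to the lowest IR heart, 8.75 CPM. C1s1 had 22.6, 18.1, 20.6 and 19.0 CPM in IR edit hearts, 22.0, 27.4 and 25.7 CPM in IR virus, 24.2, 26.0 and 21.8 CPM in IR and 26.2, 18.8 and 19.8 CPM in Sham hearts. For C1s1 the groups overlapped in all 6 comparisons. The log2 fold change in IR edit against IR virus was -0.31 (SE 0.12, adjusted p = 0.24) for C1ra and -0.32 (SE 0.12, adjusted p = 0.22) for C1s1, and neither passed edgeR's test. Set against IR they were -0.23 (adjusted p = 0.421) and -0.26 (adjusted p = 0.345). Against Sham both were at -0.11 in IR edit hearts, and at 0.08 and 0.05 without Sham replicate 1. The IR virus values against Sham were 0.21 for both, and 0.39 and 0.37 without that heart, while those of IR were 0.12 and 0.15, and 0.31 and 0.31 without it. None of these passed. C1s1 shares 576 exon bases, 18.4% of its exon length, with the antisense gene Gm16567, which was listed at 0 in all 13 hearts.

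C3, the central component that all arms cleave, was lowest in 3 of the 4 edited hearts, though the difference did not pass the test. In IR edit hearts it had 151, 76.9, 85.6 and 86.0 CPM. In IR virus hearts it had 159, 178 and 148 CPM, in IR hearts 143, 130 and 173 CPM, and in Sham hearts 218, 96.1 and 102 CPM. IR edit replicates 2, 3 and 4 lay below every other heart, while IR edit replicate 1 lay among the IR virus and IR hearts, so the groups overlapped. The group means were 99.9 ± 34.3 CPM in IR edit (SD, n = 4), 162 ± 15.2 CPM in IR virus, 149 ± 22.2 CPM in IR and 139 ± 68.8 CPM in Sham hearts (SD, n = 3 each). Set against IR virus, the log2 fold change of the IR edit hearts was -0.69 (SE 0.26, 95% interval -1.2 to -0.19, adjusted p = 0.214 by edgeR), and in IR edit against IR it was -0.57 (SE 0.26, adjusted p = 0.326), so neither passed. Without IR edit replicate 1 the difference from IR virus was -0.95 with an adjusted p of 0.0425 (edgeR). That heart was singled out after its C3 level was seen, so this value is no separate support for a difference. Against Sham the IR edit hearts were at -0.48 (SE 0.26, adjusted p = 0.287), a value set by Sham replicate 1, without which it was 0.0062. Leaving out the same heart gave 0.69 in place of 0.22 in IR virus hearts (adjusted p = 0.202) and 0.58 in place of 0.10 in IR hearts (adjusted p = 0.636, edgeR).

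Interferon-response genes, some of which are induced together with complement components, were summed over the same hearts. They came to 284, 207, 198 and 192 CPM in the IR edit hearts, 266 to 293 CPM in IR virus, 286 to 309 CPM in IR, and 277, 203 and 264 CPM in Sham hearts. IR edit replicate 1 was the highest IR edit heart for both C3 and this sum, and Sham replicate 1 the highest Sham heart for both, but Sham replicate 3 had a sum near that of the IR virus hearts with a low C3. All 17 interferon-response genes had negative log2 fold changes in IR edit against IR virus, where 48.5% of all genes had positive ones. There 0 of 17 passed (2.02% of all genes), and 7 of 17 had an unadjusted p under 0.05, as did 2380 of all 15690 genes. In IR edit against IR 15 of 17 were negative, where 49.6% of all genes were positive. There 9 of 17 had an unadjusted p under 0.05, as did 2272 of all genes. The single gene past the threshold in that comparison (1.42% of all genes) was Gbp5, a guanylate-binding protein, at -0.91 (adjusted p = 0.0399, edgeR). The relation of these genes to the C3 level was not tested.

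C4b, which encodes the C4 that C1s cleaves, had 13.3, 13.3, 6.78 and 23.4 CPM in IR edit hearts, 20.3, 18.7 and 16.2 CPM in IR virus, 16.1, 14.3 and 13.1 CPM in IR and 14.3, 6.93 and 6.58 CPM in Sham hearts. Sham replicates 2 and 3 and IR edit replicate 3 were the lowest hearts, and the IR edit range took in all IR virus and IR hearts. Every IR virus heart lay above every Sham heart, with a log2 fold change of 0.98 (SE 0.33, adjusted p = 0.214, edgeR) that did not pass. Against Sham the IR edit hearts had a log2 fold change of 0.61 (SE 0.32, adjusted p = 0.264), and 1.07 without Sham replicate 1 (adjusted p = 0.0736). Without that heart IR virus was at 1.44 (adjusted p = 0.153). In IR against Sham it was 0.63 (SE 0.34, adjusted p = 0.661), or 1.09 without Sham replicate 1 (adjusted p = 0.503), and in IR edit against IR it was -0.02 (SE 0.31).

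C7, a subunit of the membrane attack complex, had 25.7, 20.2, 12.3 and 22.9 CPM in IR edit hearts, 16.0, 17.7 and 18.8 CPM in IR virus, 18.5, 17.3 and 22.0 CPM in IR and 27.3, 13.1 and 14.0 CPM in Sham hearts. The groups overlapped in all 6 comparisons, and the widest spread was within the IR edit and Sham groups. Its log2 fold changes ran from -0.14 in IR virus against IR to 0.22 in IR edit against IR virus, each smaller than its SE. The value for IR edit against Sham was 0.16 with all hearts and 0.58 without Sham replicate 1 (adjusted p = 0.124, edgeR). Without that heart it was 0.36 in IR virus and 0.50 in IR hearts, and neither passed.

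Serping1, the C1 inhibitor, was the regulator in the set. It had 78.3, 84.7, 63.0 and 104 CPM in IR edit hearts, 93.6, 83.1 and 82.4 CPM in IR virus, 84.8, 83.6 and 70.0 CPM in IR and 75.3, 56.2 and 51.0 CPM in Sham hearts. All IR virus hearts lay above the Sham hearts, and the other groups overlapped with Sham through Sham replicate 1, IR edit replicate 3 and IR replicate 3. Against Sham the log2 fold change was 0.44 in IR edit (SE 0.15, adjusted p = 0.088), 0.50 in IR virus (SE 0.16, adjusted p = 0.196) and 0.38 in IR hearts (SE 0.16, adjusted p = 0.549), and none passed edgeR's test. Without Sham replicate 1 the IR edit value was 0.62 and passed (adjusted p = 0.036), while IR virus at 0.68 (adjusted p = 0.146) and IR at 0.56 (adjusted p = 0.471) did not. Between the injured groups the log2 fold changes lay between -0.07 and 0.12.

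Ranges that did not overlap were 1 of 7 tested genes in IR edit against Sham (Masp1), set against 16.4% of all genes, and 1 of 7 in IR against Sham (Masp1), against 14.4%. In IR virus against Sham there were 3 (Masp1, C4b and Serping1), against 21.3%. IR edit against IR virus and IR edit against IR had 2 each (Masp1 above and C1ra below), against 13.9% and 12.8%. In IR virus against IR there was 1 (C4b), against 12.0%. A count of 1 or 2 in 7 is near these shares and says nothing particular about the members. The median log2 fold change of the 7 was 0.16 in IR edit against Sham and -0.31 for IR edit against IR virus, where the medians of all genes tested were 0.00 and -0.01.

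Sham replicate 1 was above both other Sham hearts in 6 of the 7 tested members. Its level divided by the mean of Sham replicates 2 and 3 was 2.20 for C3, 2.12 for C4b, 2.02 for C7, 1.41 for C1ra, 1.36 for C1s1 and 1.41 for Serping1, but 0.99 for Masp1, and it was 1.83, 1.59 and 1.64 for C1qa, C1qb and C1qc. Over all genes tested the median ratio was 1, with 12.15% of genes at 1.3 or more and 2.24% at 1.9 or more. The share of all genes in which Sham replicate 1 was above both other Sham hearts was not counted. The same heart had summed macrophage markers of 374 CPM, against 230 and 258 CPM in the other Sham hearts, and neutrophil markers of 4.34 CPM, against 0.95 and 1.61 CPM. Its fibroblast markers, 1531 CPM, lay between theirs, 1548 and 1439 CPM. The part of these in the complement levels was not tested.

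**Figure D3:**
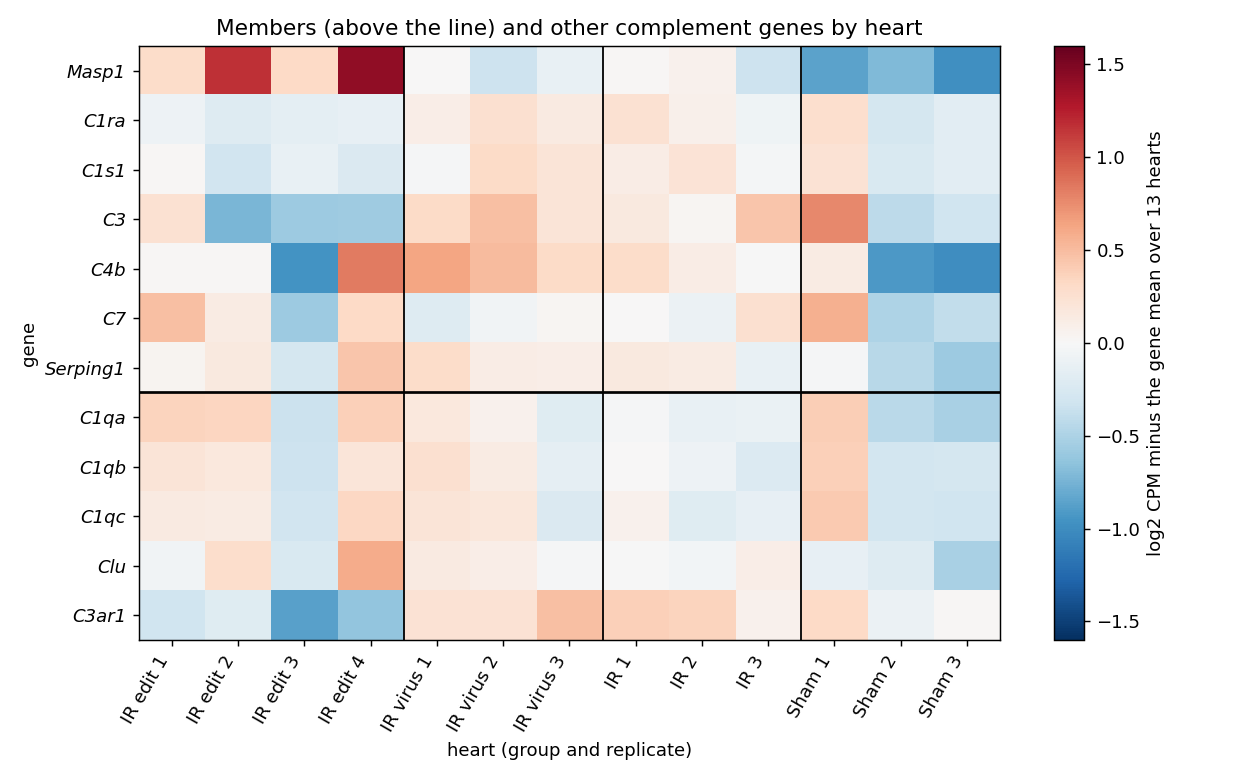
Log2 CPM minus the mean over 13 hearts (colour) of the 7 tested members (above the line) and 5 other complement genes (below it), with 1 column per heart. Masp1 is highest in IR edit replicates 2 and 4, C3 is low in IR edit replicates 2 to 4, and Sham replicate 1 is above the other Sham hearts for C3, C4b, C7 and the C1q genes.

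Several pairs of members ran together across hearts. C1ra and C1s1 had a Pearson r of 0.91 (Spearman rho 0.91) over 13 hearts and 0.83 after group means were removed. C4b and Serping1 had 0.95 (rho 0.85) and 0.96 within groups. These are descriptions, since the points share libraries, depth and groups. C3 followed C1s1 (r 0.82, rho 0.77, within groups 0.71) and C1ra (r 0.80, rho 0.80, within groups 0.68), and leaving out Sham replicate 1 gave 0.79 and 0.74. Masp1 went the other way from C3 (r -0.54, rho -0.55, within groups -0.45) and with Serping1 (r 0.66, rho 0.60, within groups 0.71). C7 ran with C1s1 at r 0.29 over all hearts and 0.48 within groups, and more closely with C4b (r 0.61, rho 0.37, within groups 0.79) and C3 (r 0.47, rho 0.40, within groups 0.77).

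**Figure D4:**
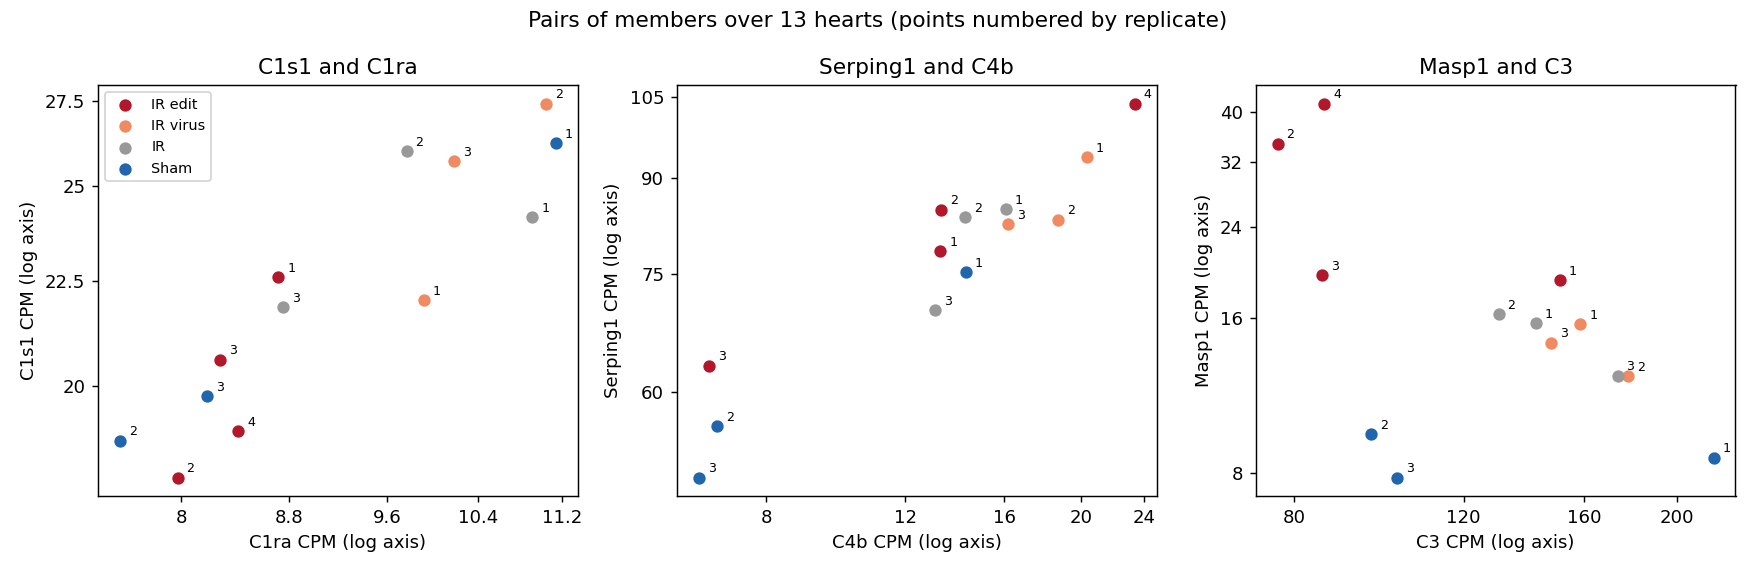
Levels of 3 pairs of members in 13 hearts, in CPM on logarithmic axes, with 1 point per heart coloured by group and numbered by replicate. C1s1 runs with C1ra (r 0.91) and Serping1 with C4b (r 0.95), while Masp1 is highest in the IR edit hearts, 3 of which have the lowest C3.

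Other genes had patterns close to those of the members. For the mean z score of the 7 tested members the closest by Pearson r over 13 hearts were Apoe (0.91), an apolipoprotein also made by macrophages, Htatip2 (0.90), Wdr19 (0.90), Angptl7 (0.90), the interferon-induced membrane gene Ifitm3 (0.90), the lysosomal protease cathepsin S, Ctss (0.89), Homer3 (0.89) and Gla (0.89), the lysosomal alpha-galactosidase. Because the mean z score pools genes that differed from one another, the genes closest to Masp1 alone were also taken, a step chosen after the values were seen. These were Spry1 (0.98), an inhibitor of receptor tyrosine kinase signalling, Col4a3 (0.98) and Col4a4 (0.96), chains of basement membrane collagen, the immediate early transcription factor Egr2 (0.97), Asap2 (0.97), Adamtsl2 (0.97), the prion protein gene Prnp (0.97) and Dync1li1 (0.96). Col4a3 had 10.1 to 29.9 CPM in IR edit hearts, 8.78 to 10.5 CPM in IR virus, 7.71 to 9.85 CPM in IR and 6.03 to 6.38 CPM in Sham hearts. As for Masp1, its IR edit values covered a wide range.

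Of 52 other complement genes listed, 31 passed the filter, and few of them passed the test. Per kilobase, averaged over 13 hearts, the fluid-phase regulator clusterin, Clu, had 105 CPM per kb and the membrane inhibitor Cd59a 35.2 CPM per kb, both above C3. The C1q genes C1qa, C1qb and C1qc had 19.2, 17.4 and 9.04 CPM per kb, above C1ra and C1s1. Among possible lectin-arm partners of Masp1, the mannose-binding lectins Mbl1 and Mbl2 had 0 to 1 and 0 to 2 reads per heart and the protease Masp2 0 to 6, whereas the collectin Colec11 had 6.42 CPM per kb. Of the 6 listed genes of the terminal complex beside C7, 1 passed the filter (C8g). Between IR edit and Sham hearts 3 of the 31 passed, 1 higher and 2 lower, where 8.01% of all genes did. In the comparisons of IR edit with IR virus (2.02% of all genes) and with IR (1.42%) 1 passed in each, lower. Counts this small are near the shares of all genes and say nothing particular about these 31. In the other 3 comparisons 0 passed, with unadjusted p under 0.05 in 3 of 31 for IR against Sham (1307 of all 15690 genes), 6 of 31 for IR virus against Sham (2411 of all) and 0 of 31 for IR virus against IR (603 of all). In those 3 comparisons DESeq2 called 0. The genes with the smallest p were C5ar2 at 0.88 in IR virus against Sham (SE 0.27, adjusted p = 0.18) and the adhesion protein vitronectin, Vtn, at 0.25 in IR virus against IR (SE 0.13, adjusted p = 0.962, both by edgeR). The C1q genes C1qa, C1qb and C1qc, which give the recognition unit for C1ra and C1s1, passed in none of the 6 comparisons. The median log2 fold change of the 31 was 0.02 in IR edit against Sham and 0.02 for IR edit against IR virus.

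C3ar1, the receptor for the C3a fragment of C3, passed in all 3 comparisons of the edited hearts. It had 7.35, 8.02, 5.02 and 5.91 CPM in IR edit hearts, 10.7, 10.7 and 12.8 CPM in IR virus, 11.9, 11.7 and 9.62 CPM in IR and 11.4, 8.57 and 9.27 CPM in Sham hearts. Every IR edit heart lay below every other heart. The log2 fold change was -0.79 in IR edit against IR virus (SE 0.15, adjusted p = 0.0149), -0.75 in IR edit against IR (SE 0.15, adjusted p = 0.0227) and -0.56 in IR edit against Sham (SE 0.15, adjusted p = 0.035, edgeR throughout). The last was -0.44 without Sham replicate 1 and no longer passed (adjusted p = 0.139). Calls on C3ar1 were also lost without IR virus replicate 3 against IR virus (adjusted p = 0.0794), without IR replicate 1 or 2 or IR edit replicate 4 against IR (0.0689 to 0.133) and without Sham replicate 3 or IR edit replicate 4 against Sham (0.0643 and 0.1). In fits restricted to the hearts compared, the call was kept against IR virus (adjusted p = 0.0374) and lost against IR (adjusted p = 0.0507) and Sham (adjusted p = 0.106, edgeR). Without IR edit replicates 2 and 4 it was likewise kept against IR virus (adjusted p = 0.0465) and lost against IR (adjusted p = 0.0599) and Sham (adjusted p = 0.125, edgeR).

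Among cell markers, the monocyte gene Ccr2 fell in the same comparisons as C3ar1. It averaged 3.84 ± 0.86 CPM in IR edit hearts (SD, n = 4), 8.97 ± 0.23 CPM in IR virus, 9.67 ± 3.11 CPM in IR and 7.47 ± 2.56 CPM in Sham hearts (SD, n = 3 each). Its log2 fold change in IR edit hearts was -1.22 against IR virus (adjusted p = 0.0211), -1.33 against IR (adjusted p = 0.0136) and -0.96 against Sham (adjusted p = 0.0317, edgeR). Summed macrophage and monocyte markers were 250 to 346 CPM in IR edit, 302 to 322 CPM in IR virus, 299 to 311 CPM in IR and 230 to 374 CPM in Sham hearts, and so overlapped between groups. Ccr2 was the 1 of the 12 markers in that list past the threshold in each of these comparisons. Of all genes 2.02% passed against IR virus, 1.42% against IR and 8.01% against Sham. In IR edit against IR virus 7 of the 12 had positive log2 fold changes and 5 negative ones. The split was 8 and 4 in IR edit against IR, and 9 and 3 in IR edit against Sham. The bearing of these markers on the C3ar1 result was not tested.

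The other genes past the threshold in IR edit against Sham were C5ar2, a receptor for the C5a fragment, at 0.90 (SE 0.25, adjusted p = 0.0418), and Cpn2, a subunit of the carboxypeptidase that trims C3a and C5a, at -1.19 (SE 0.32, adjusted p = 0.0361, edgeR). C5ar2 was low, with 32 to 47 reads in IR edit and 13 to 31 reads in Sham hearts. Its group means were 1.76 CPM in IR edit, 1.73 CPM in IR virus, 1.49 CPM in IR and 0.93 CPM in Sham hearts. The unedited injured hearts were thus near the edited ones. For Cpn2 the means were 1.75, 3.75, 3.13 and 3.98 CPM in the same order. Cpn2 had 20 to 68 reads in IR edit and 77 to 120 reads in Sham hearts, and its lowest hearts were IR edit replicates 2 and 4 at 1.08 and 0.81 CPM. Neither passed when IR edit replicate 2 or 4 or Sham replicate 2 or 3 was left out, with adjusted p of 0.0779 to 0.141, nor in a fit restricted to IR edit and Sham hearts (adjusted p = 0.0998 for C5ar2 and a higher one for Cpn2). Without IR edit replicates 2 and 4 they were at 0.71 and -0.64, and neither passed. Without Sham replicate 1 the values were 1.11 for C5ar2 (adjusted p = 0.0495) and -1.38 for Cpn2 (adjusted p = 0.0387, edgeR).

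**Figure D5:**
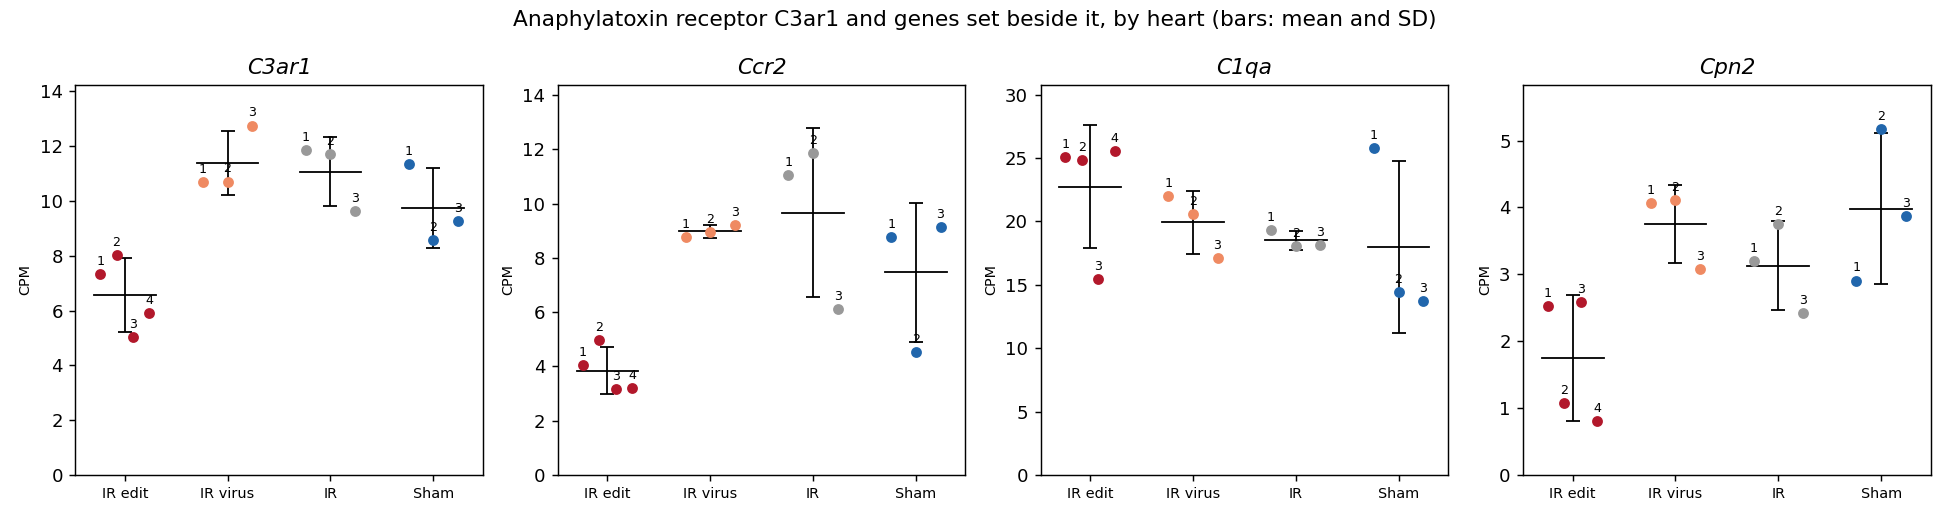
TMM-scaled CPM (y axis) of C3ar1, the monocyte marker Ccr2, C1qa and Cpn2 in each heart by group; points are hearts numbered by replicate, with mean and SD over 4 IR edit and 3 hearts in each other group. The IR edit hearts have the lowest C3ar1, at 5.02 to 8.02 CPM, while C1qa overlaps between all groups.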

How the data were processed

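Raw read counts per gene symbol, as the authors deposited them, were the starting point, with 1 library per heart. Per the submitters' processing notes, HISAT2 2.1.0, featureCounts 1.6.2, Trimmomatic 0.39 and FastQC 0.11.8 were the tools and mm10 the build; the sources used here do not state the annotation, the strand setting or the treatment of reads that hit more than 1 gene. Counts were analysed in R 4.3.3 with edgeR 4.0.16: TMM scaling, filterByExpr (15690 genes kept) and the quasi-likelihood test on all 13 libraries with a mean per group, Benjamini-Hochberg adjustment over all genes tested and a threshold of 0.05. SE is the absolute log2 fold change over the square root of F. P-values test differences of group means against the spread between these hearts, estimated over all groups together. Log2 CPM for correlations used a prior count of 2. DESeq2 1.42.0 was an alternative, beside other scaling, filters, dispersion, a replicate block, fits of 2 groups and fits without single hearts. The procedure was tested on simulated data.

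The members and lists were chosen with earlier results of these data known. All 9 members were named, with other complement genes past the threshold (or that of smallest p) and the 8 genes closest in pattern of at least 1 CPM; 1 gene the rule would name is not reported here. Replicate numbers were not treated as pairs: deviations of same-numbered hearts correlated at -0.13 to 0.22, over 0.1 in 4 of 18 pairs. Those of hearts with different numbers correlated at -0.19 to 0.21, over 0.1 in 5 of 45 pairs. Per-kilobase values used exon lengths of GENCODE M21.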

Additional observations from a re-analysis of the deposited data

Results flagged for a closer look

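C3 in IR edit replicate 1, at 151 CPM, stood far from the other IR edit hearts, at 76.9, 85.6 and 86.0 CPM. Its gap to the nearest of them was 0.877 of the range of the group, above Dixon's critical value for a group of 4. The 12 genes whose IR edit hearts were looked at in this way gave this 1 case, and chance gives such a case in about 1 of 20 groups. In the same heart the summed interferon-response genes were 284 CPM, against 192 to 207 CPM in the other IR edit hearts.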

How the results depend on the processing

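Of 663 log2 fold changes of single genes under alternatives, 574 kept their direction and side of the threshold and 28 reversed. Another 37 kept their direction but lost the call, and 24 passed the threshold only under the alternative. Only results past the threshold with the settings used above could lose a call. They make up a minority of the 663, so the 574 say little about the calls. Members past the threshold were 1 in IR edit against Sham (1 to 3 over fits without single hearts, 4 with no filter, 2 with DESeq2's Wald test). They were 1 in IR edit against IR virus (0 to 2 without single hearts, 2 with no filter, 0 with robust dispersion, with the replicate block, with only the 2 groups or without IR edit replicates 2 and 4). For IR edit against IR 0 passed (0 to 1 without single hearts, 2 with no filter, 1 with DESeq2). In IR against Sham and IR virus against Sham 0 passed, with 3 and 3 under no filter, 1 and 1 with only the 2 groups, and 2 (C4b and Serping1) in IR virus against Sham with the replicate block.

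Other complement genes past the threshold were 3 in IR edit against Sham (0 to 6 without single hearts, 9 with no filter) and 1 in IR edit against IR (0 to 2, 3 with no filter), and 0 in both with the replicate block, only the 2 groups or without IR edit replicates 2 and 4. Between IR edit and IR virus there was 1 (0 to 5 without single hearts, 5 with no filter, 3 with DESeq2, 0 with the replicate block). With no filter 1 passed in IR against Sham and 2 in IR virus against Sham, and 1 in IR virus against Sham with only the 2 groups. With no filter 31973 genes were tested and 6.90% passed in IR edit against Sham. The cause of these changes was not tested.

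The replicate block moved Masp1 in IR edit against IR virus to 0.75 (adjusted p = 0.0783, edgeR). For IR edit against IR the block gave -0.019 for C7 and -0.078 for Serping1, and leaving out IR edit replicates 2 and 4 gave -0.00077 and -0.17. The labels do not say whether same-numbered hearts shared more than a number.

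Small log2 fold changes changed sign without single hearts. In IR edit against Sham they ran from -0.22 to 0.080 for C1ra, -0.20 to 0.053 for C1s1, -0.75 to 0.0062 for C3 and -0.031 to 0.58 for C7. In IR against Sham C3 ran from -0.11 to 0.58 and C7 from -0.11 to 0.50, and in IR virus against Sham C7 ran from -0.25 to 0.36. Serping1 ran from -0.19 to 0.043 in IR edit against IR virus. For IR edit against IR the ranges were -0.36 to 0.20 for C4b, -0.044 to 0.26 for C7 and -0.068 to 0.16 for Serping1. In IR virus against IR they were -0.18 to 0.018 for Masp1 and -0.0095 to 0.15 for C1s1. Counts of 1 to 12 reads for C2 and 0 to 3 reads for Cfb limit what can be said of them.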

Other observations

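Genes that respond to inflammatory cytokines were looked at beside the members. Of 13 tested genes of the interleukin-6 and acute phase list, 2 rose in IR edit against Sham, where 8.01% of all genes passed in either direction: Cebpd, a C/EBP transcription factor, at a log2 fold change of 1.12 (adjusted p = 0.0391), and Lbp, the lipopolysaccharide-binding protein, at 0.99 (adjusted p = 0.0468, edgeR). The summed level of the list was 480 to 689 CPM in IR edit hearts and 461 to 502 CPM in Sham hearts, so the groups overlapped. Wt1, an epicardial transcription factor, rose at 0.60 (adjusted p = 0.0419, edgeR) and the fatty acid binding gene Fabp4 fell at -0.39 (adjusted p = 0.0156) in the same comparison.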
